A study of Mus musculus with 6 samples.

Results

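Co-stimulation and adhesion molecules of the macrophage surface were followed here as 7 genes: Cd40, the B7-family genes Cd80, Cd86, Cd274 and Pdcd1lg2, the adhesion gene Icam1, and Cd28. They were taken by name from the 18194 genes that the array annotation names singly, and a gene with several probe sets was represented by the probe set with the highest mean over the 6 arrays. Cd28 was included because it was known to be higher in the knockout, so its genotype difference is described and no test of it is read as a result. Levels are log2 values, on which a difference of 1 is 2-fold, and they are compared between arrays for the same gene, not between genes.

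The arrays measured total RNA of peritoneal macrophages from mice injected with thioglycollate, an irritant that recruits macrophages to the abdominal cavity. Wild-type cells and cells of LysM-Cre+;Akirin2fl/fl mice (Akirin2 KO below), all of C57BL/6 x 129Sv strain, were left unstimulated or given 100 ng/ml of lipopolysaccharide (LPS), a bacterial cell wall component that activates macrophages through TLR4, for 2 or 4 h. In the KO, a Cre recombinase made from the lysozyme locus deletes floxed Akirin2 in myeloid cells; the labels give no age, do not say whether wild-type mice carried Cre or floxed alleles, and do not say how many mice gave an array. Each of the 6 conditions had 1 array, so a difference between 2 arrays has no replicate error.

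Co-stimulatory molecules give T cells the signal that must accompany antigen recognition. CD80 and CD86 on an antigen-presenting cell bind CD28 on the T cell, while PD-L1 and PD-L2, encoded by Cd274 and Pdcd1lg2, bind PD-1 and restrain it. CD40 receives CD40 ligand from helper T cells, and ICAM-1 holds the contact by binding the integrin LFA-1. In macrophages, activation by LPS and by interferons is known to change the surface amounts of several of these proteins.

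Icam1, Cd40 and Cd274 were higher after LPS in both genotypes, Cd86 was lower at 4 h, and Cd80 and Pdcd1lg2 lay near the middle of each array's distribution throughout. Cd40 was lower in KO at all 3 times, and Cd28 was higher in KO at all 3 times. The deletion was visible in Akirin2 itself, whose KO level was between 18.7% and 26.2% of wild-type by its brightest probe set (genotype coefficient -2.20, or -1.11 with probe sets averaged, both called). All 7 genes passed a low floor, that of reaching the median of all probe sets on at least 1 array (array medians were 3.18 to 3.23), as did 13587 of the 18194 genes. Cd80 reached the array median on 4 arrays with its highest value at 3.56, and both it and Pdcd1lg2 stayed under the 75th percentile on all 6 arrays.

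**Figure D1:**
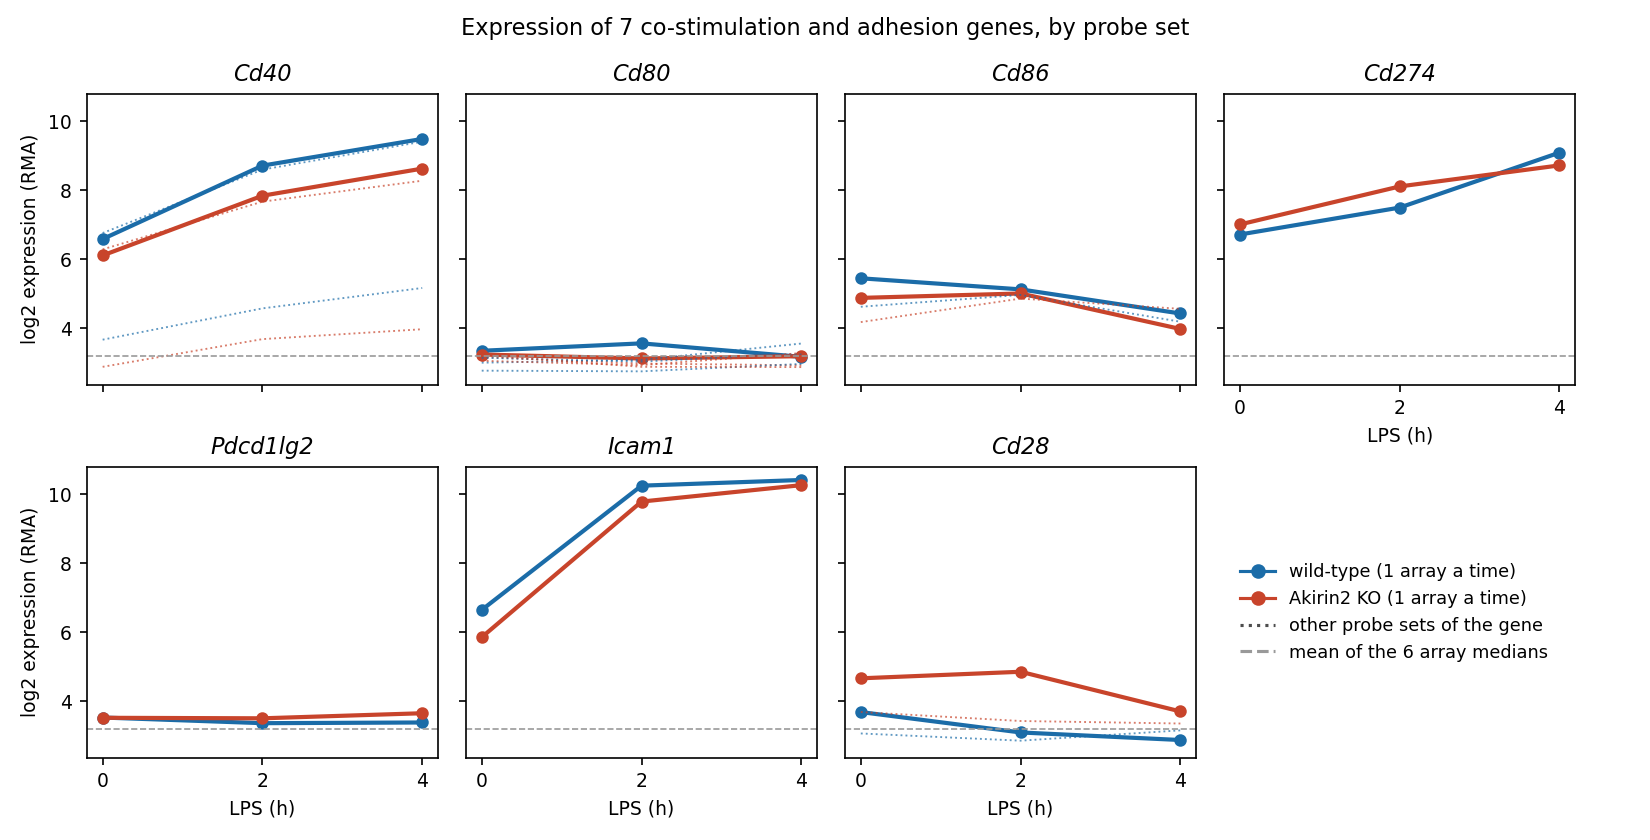
Log2 expression (vertical axis) of the 7 genes at 0, 2 and 4 h of LPS (horizontal axis) in wild-type (blue) and Akirin2 KO (red), with 1 array a point. Dotted lines are other probe sets of the same gene and the dashed line is the mean of the array medians. Icam1 runs from 6.65 to 10.4 in wild-type and from 5.86 to 10.3 in KO, and Cd80 and Pdcd1lg2 lie along the dashed line.

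Calls over many genes came from limma, a linear model with moderated variances. An additive fit of LPS time and genotype was made on the 13587 genes with Benjamini-Hochberg adjustment over all of them and a threshold of 0.05. Its residuals are the departures from a constant genotype difference, so its p-values, for LPS and for genotype, do not measure the spread between mice. A genotype p-value reflects how steady a difference was over the 3 times. An LPS p-value reflects how alike the 2 genotypes responded. Limma also shares variance between genes (6.35 prior degrees of freedom beside 2 residual ones), so neither rests on a gene's own values alone. In this fit 3 of the 7 genes rose at 2 h, Icam1, Cd40 and Cd274, where 3.96% of all genes rose, and 0 fell, where 2.89% fell. At 4 h the same 3 genes rose (7.76% of all genes) and Cd86 and Cd28 fell (7.61%). The median coefficient of the 7 genes was 0.050 at 2 h and -0.006 at 4 h, beside -0.042 and -0.026 over all genes.

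Cd40 encodes a receptor of the TNF receptor family through which T cells activate macrophages. It read 6.58, 8.71 and 9.48 in wild-type at 0, 2 and 4 h. In KO the readings were 6.10, 7.83 and 8.62. The value went up at each step in both genotypes, and the KO array was the lower at every time. Over both genotypes Cd40 rose by 1.93 at 2 h (SE 0.16, adjusted p = 0.000288) and by 2.71 at 4 h (SE 0.16, adjusted p = 2.78e-05), and it ranked 71 among the 13587 genes by its 4 h coefficient. Without probe sets of the _x_at and _s_at types, which leaves the dimmest of its 3 probe sets, the rises were 0.85 (adjusted p = 0.0158) and 1.29 (adjusted p = 0.000849). By single arrays the 4 h value stood 7.48-fold above 0 h in wild-type and 5.73-fold in KO.

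Without LPS, Cd40 in KO stood at 71.9% of its wild-type level, and after 2 and 4 h at 54.6% and 55.1%. On the log2 scale these gaps were -0.48, -0.87 and -0.86, with mean -0.74 ± 0.23 (SD, n = 3 times). Cd40 was the member that limma called lower in KO (coefficient -0.74, SE 0.13, adjusted p = 0.0359); 1.06% of all genes were called lower. The call was lost without the 2 h arrays (-0.67, adjusted p = 0.160), without the 4 h arrays (-0.67, adjusted p = 0.0705), with quantile normalization again (-0.69, adjusted p = 0.0678) and with arrays centred (-0.72, adjusted p = 0.101), and over all alternatives the adjusted p ran from 4.60e-05 to 0.160.

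The other 2 probe sets of Cd40 gave the same order. One read 6.75, 8.59 and 9.40 in wild-type cells and 6.28, 7.66 and 8.27 in KO cells. The other read lower, at 3.66, 4.57 and 5.16 in wild-type cells and 2.88, 3.68 and 3.97 in KO cells, and put KO 1.19 below wild-type at 4 h. All 3 probe sets of Cd40 were therefore lower in KO at each time. The 3 genes whose 6 values, each gene centred on its mean, lay closest to those of Cd40 were Ifih1, which encodes the RNA sensor MDA5 (root mean square difference 0.126), Lmo4 (0.144) and Mmp14, a membrane-bound matrix metalloproteinase (0.228).

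CD80 and CD86 are the paired B7 ligands of CD28. Cd80 read 3.34, 3.56 and 3.17 in wild-type cells and 3.23, 3.12 and 3.18 in KO cells, and the genotypes overlapped. Its coefficients were 0.050 at 2 h (SE 0.17, adjusted p = 0.911) and -0.11 at 4 h (SE 0.17, adjusted p = 0.717). The 3 other probe sets of Cd80 ranged from 2.75 to 3.55 over the 6 arrays. At values this close to the array median a change could go undetected, and none of these numbers shows that the gene was silent.

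Cd86 was measurable and went down late. It read 5.44, 5.12 and 4.42 in wild-type cells and 4.87, 5.002 and 3.97 in KO cells, so that the 4 h array was the lowest of each genotype. It fell by 0.96 at 4 h over both genotypes (SE 0.165, adjusted p = 0.00535), while its coefficient at 2 h was -0.096 (adjusted p = 0.806). In wild-type the 4 h array was 2.03-fold below 0 h, and in KO 1.87-fold below. A second probe set of Cd86 read 4.62, 4.96 and 4.18 in wild-type cells and 4.17, 4.85 and 4.56 in KO cells. There the 4 h value differed from 0 h by -0.43 in wild-type and by 0.38 in KO, and with the probe sets averaged the coefficient was -0.49 (adjusted p = 0.0675; 0.00172 to 0.0675 over all alternatives), so the call at 4 h rests on 1 of the probe sets.

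Cd86 was lower in KO at 0, 2 and 4 h by the first probe set, with log2 differences of -0.57, -0.12 and -0.45. The fitted genotype coefficient of -0.38 (SE 0.14) had an adjusted p of 0.226 in limma and was not called; with probe sets averaged it was -0.22. The closest profiles to Cd86 were those of Tox2 (root mean square difference 0.095), Rb1 (0.111), the retinoblastoma tumour suppressor, and Pkib (0.116), an inhibitor of protein kinase A.

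Cd274 and Pdcd1lg2, the checkpoint ligand genes, are next to each other in the mouse genome. Their upstream sequences, and that of Icam1, are shown because 1 of the neighbours was called after LPS and the other was not, and because Icam1 had the largest response of the members. RefSeq (GRCm38.p6) gave promoter windows for 4 of the 7 members. Each line is the 250 bases before the annotated start, 5′ to 3′ on the plus strand, at chr9:21015690-21015939 for Icam1, chr19:29367188-29367437 for Cd274 and chr19:29410669-29410918 for Pdcd1lg2. Capitals mark matches to the motifs named after the sequences.

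Icam1: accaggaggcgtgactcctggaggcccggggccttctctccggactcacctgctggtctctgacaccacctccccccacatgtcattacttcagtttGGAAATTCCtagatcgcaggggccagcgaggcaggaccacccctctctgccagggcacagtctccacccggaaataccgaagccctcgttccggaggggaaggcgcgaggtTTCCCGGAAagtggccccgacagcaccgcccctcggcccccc
Cd274: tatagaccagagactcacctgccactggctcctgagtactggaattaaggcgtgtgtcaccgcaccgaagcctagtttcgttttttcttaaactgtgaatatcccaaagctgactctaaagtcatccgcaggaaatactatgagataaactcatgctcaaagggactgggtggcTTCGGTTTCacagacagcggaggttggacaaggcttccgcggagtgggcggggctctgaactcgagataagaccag
Pdcd1lg2: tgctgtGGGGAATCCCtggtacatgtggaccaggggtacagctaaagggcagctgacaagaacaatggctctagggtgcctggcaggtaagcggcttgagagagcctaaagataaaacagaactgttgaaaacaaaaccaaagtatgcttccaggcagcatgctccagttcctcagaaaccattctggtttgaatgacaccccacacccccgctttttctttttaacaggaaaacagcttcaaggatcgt

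In the Icam1 window the first run of capitals matches GGAANTTCC, a palindromic form of the NF-kB site, between 153 and 145 bases before the start. The later run in Icam1 matches the STAT motif TTCNNNGAA, between 42 and 34 bases before it. The capitals in Cd274 match the interferon regulatory factor core GAAANNGAA on the opposite strand, between 76 and 68 bases before the start, and those in Pdcd1lg2 match the NF-kB consensus. Both strands were searched for each motif. The matches in Icam1 and Pdcd1lg2 read on both strands, and no match overlapped one to another motif. Of 32851 RefSeq windows of 250 bases, 0.813% held the palindrome, 7.02% the STAT motif, 7.13% the interferon regulatory factor core and 3.9% the NF-kB consensus. The Cd80 window held none of these letters. The motifs were picked after the sequences had been seen, and a match describes letters only.

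Cd274 encodes PD-L1. It read 6.71, 7.49 and 9.08 in wild-type cells and 7.002, 8.10 and 8.71 in KO cells. The KO array was the higher at 0 and 2 h and the lower at 4 h, so the order of the genotypes turned over the course. Over both genotypes Cd274 rose by 0.94 at 2 h (SE 0.23, adjusted p = 0.0443) and by 2.04 at 4 h (SE 0.23, adjusted p = 0.000563). The call at 2 h was lost without the wild-type 0 h array (0.86, adjusted p = 0.0737) or the KO 2 h array (0.61, adjusted p = 0.377), and with no floor, the higher floor or either rescaling; over all alternatives its coefficient lay between 0.61 and 1.27 and its adjusted p between 0.00297 and 0.377.

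From 2 to 4 h Cd274 went up 3.02-fold in wild-type and 1.53-fold in KO. The 4 h array stood 5.18-fold above 0 h in wild-type and 3.28-fold in KO, a response difference of -0.66 on the log2 scale, under the 2-fold rule; 3.14% of all genes differed 2-fold in response at 4 h. The genotype coefficient was 0.18 (SE 0.18, adjusted p = 0.704), and it was -0.040 without the 2 h arrays. Nrp2, a neuropilin, had the closest profile (root mean square difference 0.151), followed by the adhesion receptor gene Adgrl2 (0.220) and Lztfl1 (0.245).

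Pdcd1lg2 encodes PD-L2, the other PD-1 ligand. It read 3.53, 3.37 and 3.39 in wild-type cells and 3.52, 3.51 and 3.65 in KO cells. These values span 0.29 in all and show no step with LPS. The coefficients were -0.090 at 2 h (SE 0.15, adjusted p = 0.805) and -0.006 at 4 h (SE 0.15, adjusted p = 0.984), the latter with a sign that turned to 0.048 and 0.028 under the 2 rescalings. On the other side of Cd274 lies Plgrkt, a plasminogen receptor gene, with coefficients of -0.35 (adjusted p = 0.297) at 2 h and -0.58 (adjusted p = 0.0503) at 4 h. Ric1, the neighbour beyond Pdcd1lg2, had -0.31 (adjusted p = 0.289) and -0.43 (adjusted p = 0.0898). Of these 4 neighbouring genes Cd274 was the one called.

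Icam1 had the largest response of the members. It read 6.65, 10.2 and 10.4 in wild-type cells and 5.86, 9.79 and 10.3 in KO cells. Most of the difference from 0 h was already present at 2 h in both genotypes, and the KO array was the lower at each time. Icam1 rose by 3.77 at 2 h (SE 0.18, adjusted p = 1.11e-05) and by 4.09 at 4 h (SE 0.18, adjusted p = 6.25e-06), ranks 18 and 20 among the 13587 genes. At 4 h it stood 13.6-fold above 0 h in wild-type and 21.2-fold in KO.

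Icam1 differed between genotypes by -0.79, -0.46 and -0.15 at 0, 2 and 4 h, which put KO at 57.8%, 72.6% and 90.1% of wild-type. The fitted coefficient was -0.47 (SE 0.15) with an adjusted p of 0.180, which limma did not call. With the eBayes step set to trend and robust the adjusted p was 0.00634, and over all alternatives it lay between 0.00634 and 0.483. The largest of the 3 differences rests on the wild-type and KO arrays at 0 h alike. The KO 0 h array had the highest median and the lowest spread of the 6 arrays (SD 1.76 over all probe sets, against 1.799 to 1.804 on the others). Without the 0 h arrays the Icam1 coefficient was -0.31 (adjusted p = 0.311). The part of that array in the Icam1 difference was not tested.

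The closest profile to Icam1 was that of Icosl (root mean square difference 0.194), which encodes the B7-family ligand of ICOS, before Spata13 (0.269) and Marcksl1 (0.271). Icosl read 5.79, 9.77 and 9.71 in wild-type cells and 5.05, 8.91 and 9.14 in KO cells. Like Icam1 it was near its highest at 2 h on both time courses. Icam4, the gene next to Icam1, did not reach the median of any array, and Mrpl4 on the other side had coefficients of 0.25 (adjusted p = 0.528) and 0.19 (adjusted p = 0.571) at 2 and 4 h.

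**Figure D2:**
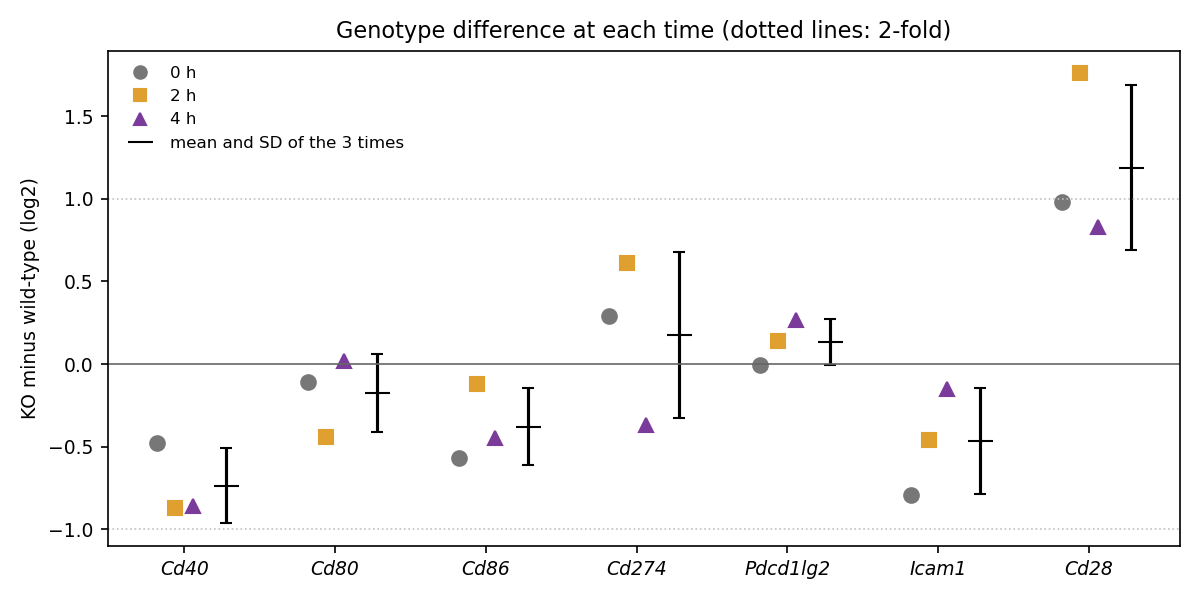
Difference KO minus wild-type on the log2 scale (vertical axis) for each of the 7 genes at 0 h (grey circles), 2 h (orange squares) and 4 h (purple triangles), with 1 array of each genotype a point; black bars are the mean and SD of the 3 times, and dotted lines mark 2-fold. Cd40 lies below 0 at all 3 times with a mean of -0.74, Cd28 above 0 at all 3 with a mean of 1.19, and Cd274 crosses 0.

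Cd28 encodes the T cell receptor for CD80 and CD86, and macrophages are not its usual source. It read 3.69, 3.10 and 2.88 in wild-type cells and 4.67, 4.86 and 3.71 in KO cells. All 3 KO values lay above all 3 wild-type values, narrowly so between the KO array at 4 h (3.71) and the wild-type array at 0 h (3.69). Wild-type cells were under the array median at 2 and 4 h, so the KO over wild-type ratios there are against a level near background. The KO level was 1.97-fold, 3.39-fold and 1.78-fold that of wild-type at 0, 2 and 4 h, and the mean log2 difference was 1.19 ± 0.50 (SD, n = 3 times).

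The other Cd28 probe set read lower, at 3.07, 2.86 and 3.16 in wild-type cells and 3.69, 3.43 and 3.36 in KO cells. Its KO values were again above its wild-type values without overlap, by 0.62, 0.57 and 0.20 at the 3 times. Over both genotypes Cd28 fell by 0.88 at 4 h by the first probe set (SE 0.23, adjusted p = 0.0315). That call was lost without the wild-type 0 h array (-0.73, adjusted p = 0.0786), without the KO 4 h array (-0.61, adjusted p = 0.155), with probe sets averaged (-0.50, adjusted p = 0.0904) and with arrays centred (-0.85, adjusted p = 0.0643); over all alternatives the adjusted p ran from 0.00467 to 0.155. The closest profiles were those of Padi2, a peptidylarginine deiminase (root mean square difference 0.191), the DNA repair gene Brca1 (0.230) and Smarca2, a SWI/SNF ATPase (0.236). Ctla4, the gene next to Cd28 that encodes the inhibitory receptor for the same ligands, did not reach the median of any array.

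T cell markers were set beside Cd28, since a bulk sample cannot tell more cells of a type from more RNA per cell. Of 14 listed T cell markers 10 were on the arrays under 1 name, and 7 of them reached the array median at least once; Cd3d, Cd3g and Cd5 never did. Their summed linear signal was 96.0 to 98.7 in wild-type and 100.2 to 113.3 in KO. That gap was carried by Lat: without it the other 9 markers summed to 85.3 to 87.2 in wild-type and 79.8 to 85.9 in KO, which overlap (a split made after the values were seen). The mean of the 10 markers was 3.22 to 3.33 over the arrays, close to the array medians. These sums are therefore largely signal near background, and their overlap says little about T cell content. Cd3e, the marker with the highest mean, read 3.88, 4.18 and 4.21 in wild-type cells and 4.10, 4.17 and 3.94 in KO cells, and its genotype coefficient was -0.020 (adjusted p = 0.962). Among the 10, Lat was the one called, where 0.891% of all genes were called higher in KO and 1.06% lower. Lat rose by 1.11 in KO (SE 0.14, adjusted p = 0.00746), from 3.41, 3.53 and 3.53 in wild-type to 4.68, 4.77 and 4.35 in KO. Lat encodes the adaptor that carries T cell receptor signals and is also known from mast cells and platelets. The 5 mast cell markers summed to 41.1 to 42.8 in wild-type and 44.2 to 47.7 in KO, without overlap. Their mean was close to the array median on every array (3.03 to 3.23). Between genotypes 0 of them were called, where 0.891% of all genes were called higher in KO and 1.06% lower. The median genotype coefficient of the T cell markers above the floor was -0.020. The part of T cells or mast cells in the Cd28 values was not tested.

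**Figure D3:**
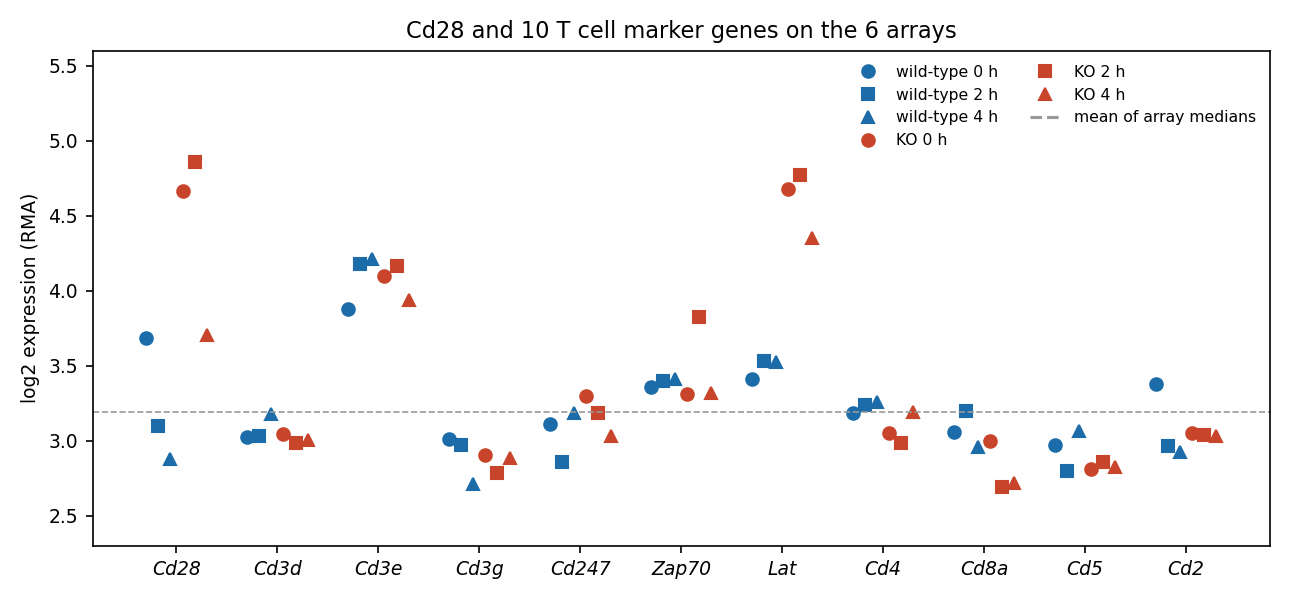
Log2 expression (vertical axis) of Cd28 and of the 10 T cell marker genes on the arrays (horizontal axis), with wild-type in blue, KO in red and circles, squares and triangles for 0, 2 and 4 h. The dashed line is the mean of the array medians. Cd28 and Lat show KO above wild-type without overlap, while Cd3d, Cd3g, Cd4 and Cd5 lie near the dashed line in both genotypes.

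By the 2-fold rule for single arrays, Icam1 and Cd40 were higher at 2 h in wild-type (2.26% of all genes) and 0 members were lower (2.19%). At 4 h in wild-type Icam1, Cd40 and Cd274 were higher (3.72%) and Cd86 was lower (4.75%). In KO the same 3 genes were higher at 2 h (2.44%) and at 4 h (4.07%), and 0 members were lower at either time (0.905% and 2.47%). Between genotypes 0 members other than Cd28 were 2-fold apart at 0 h (1.93%), 2 h (0.949%) or 4 h (1.45%). Cd28 passed at 2 h and lay just under the rule at 0 h, at 0.98. Since Cd28 was included for being higher in KO, nothing is read from its passing.

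Whether the LPS response itself differed between genotypes was asked with an added term for genotype by stimulation. Limma called 0 of the 7 genes and 0.0294% of all genes, which is 4 genes, while 1739 genes had an unadjusted p under 0.05. The coefficient with the largest size among the members was that of Icam1, 0.48 (SE 0.26, adjusted p = 0.462), a larger step in KO from a lower start. Cd40 stood at -0.39 (SE 0.25, adjusted p = 0.545), Cd28 at 0.32 (SE 0.34, adjusted p = 0.747) and Cd86 at 0.28 (SE 0.26, adjusted p = 0.700). The fit had 1 residual degree of freedom and 11.5 prior ones, so its errors rest mostly on the variance shared between genes. Differences of this size were not separated from 0. By single arrays 0 members differed 2-fold in response at 2 h (1.74% of all genes) or at 4 h.

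Over the 3 times the members other than Cd28 had genotype coefficients of -0.74 (Cd40), -0.47 (Icam1), -0.38 (Cd86), -0.18 (Cd80), 0.13 (Pdcd1lg2) and 0.18 (Cd274). The median over all genes was -0.011. In limma 0.891% of all genes were called higher in KO; Cd28 was the member among them, and nothing is read from it. Among mesothelial and fibroblast markers, the summed signal was 738 to 798.3 in wild-type and 460.6 to 545.2 in KO, without overlap, and the median coefficient was -0.47. The collagen genes had coefficients of -0.62 (Col1a1), -0.83 (Col1a2) and -0.70 (Col3a1), and Dcn had -0.63. The mesothelial genes Wt1, Msln, Krt19, Upk1b and Upk3b had -0.47, -0.25, -0.15, -0.023 and 0.14. Of 9 above the floor, Col1a2 alone was called lower in KO (adjusted p = 0.0372), where 1.06% of all genes were. That call was lost with arrays centred (adjusted p = 0.117) and under other alternatives. For Actb the 3′ probe set exceeded the 5′ one, a gap that widens as RNA degrades, by 4.22, 4.16 and 4.09 in wild-type cells and 4.64, 4.50 and 4.36 in KO cells. The same gap for Gapdh was 4.33, 4.33 and 4.42 in wild-type cells and 4.34, 4.52 and 4.43 in KO cells, so the genotypes overlapped there. The part of mesothelial cells, fibroblasts or RNA quality in the lower Cd40 and Icam1 values was not tested.

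All 8 macrophage markers on the arrays were above the floor, but at very different values. Csf1r read between 12.5 and 12.7, Lyz2 between 12.01 and 12.2 and Cd68 between 10.6 and 10.9, while Itgam read between 3.06 and 3.47, around the array median. Of them Fcgr1 was called lower in KO (-0.89, SE 0.12, adjusted p = 0.0115), where 1.06% of all genes were. With probe sets averaged its coefficient was -0.54 (adjusted p = 0.0546). The list's median was -0.17. B cells and dendritic cells also carry Cd40, Cd80 and Cd86. The B cell markers summed to 60.1 to 69.9 in wild-type and 51.5 to 74.4 in KO, which overlap, with Cd79a, Cd79b, Ms4a1 and Blk above the floor and Pax5 never. Of 6 dendritic cell markers Zbtb46 alone was above the floor, and Flt3, Xcr1, Ccr7, Cd209a and Siglech were not. Their sums were 52.1 to 56.9 in wild-type and 51.5 to 56.4 in KO. The mean over the arrays was 3.32 to 3.78 for the B cell markers and 3.05 to 3.13 for the dendritic cell markers. Both sums therefore hold much signal near the array medians.

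Other genes of the pathway were taken from lists. Among 13 further B7-family and related genes above the floor, 2 rose at 2 h (3.96% of all genes). At 4 h 3 rose (7.76%) and 2 fell (7.61%), with a median of 0.16. Between genotypes 1 was higher (0.891%) and 1 lower in KO (1.06%), with a median of -0.050. Icosl rose by 4.01 at 4 h (SE 0.15, adjusted p = 3.04e-06) and was lower in KO by 0.73 (adjusted p = 0.0301). That genotype call was lost with probe sets averaged (-0.36, adjusted p = 0.137), with arrays centred (-0.71, adjusted p = 0.0546) and without the 2 h arrays (-0.66, adjusted p = 0.155), the highest of its alternatives. Cd200, a ligand that restrains myeloid cells, read 6.94, 7.74 and 8.16 in wild-type cells and 8.23, 8.94 and 8.73 in KO cells, and rose by 1.02 in KO (SE 0.16, adjusted p = 0.0214; 1.04 with arrays centred, adjusted p = 0.0729). Pvr, which encodes the ligand of CD226 and TIGIT, rose by 1.34 at 4 h, and Vsir, the gene of the checkpoint protein VISTA, fell by 1.45. With probe sets averaged the 4 h rises were smaller but still called, at 2.11 for Icosl and 0.68 for Pvr.

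Of 2 TNF superfamily co-stimulatory ligands above the floor, Tnfsf9, which encodes 4-1BB ligand, rose by 5.36 at 2 h and 4.27 at 4 h. Of all genes 3.96% and 7.76% rose. Tnfsf9 read 3.41, 9.03 and 8.04 in wild-type cells and 2.95, 8.03 and 6.86 in KO cells. At 0 h it was near the array median in wild-type and under it in KO, so its rises start from a level near background. It was lower in KO by 0.88 (SE 0.16, adjusted p = 0.0344), where 1.06% of all genes were called lower. Without the 2 h or the 4 h arrays that adjusted p was 0.0835 or 0.0609, and over all alternatives it ran from 0.000258 to 0.112. Of 7 CD40 signal adaptors, 4 rose at both 2 h (3.96% of all genes) and 4 h (7.76%). Between genotypes 0 were called higher in KO (0.891% of all genes) and 0 lower (1.06%), so nothing is read from that count. Traf1 rose by 3.88 at 4 h, Traf5 by 1.91, Tank by 1.79 and the ubiquitin ligase gene Birc3 by 1.59. With probe sets averaged Traf1 rose by 2.41 and Traf5 by 1.03. Their list had a median of 1.59 at 4 h and -0.22 between genotypes.

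Among 17 genes of leukocyte adhesion and ICAM-1 partners above the floor, 3 rose at 2 h (3.96% of all genes). At 4 h 6 rose (7.76%) and 3 fell (7.61%). Itgal, the LFA-1 chain that pairs with Itgb2 to bind ICAM-1, rose by 1.68 at 4 h (SE 0.19, adjusted p = 0.000678; 1.01 with probe sets averaged), while Icam2 fell by 1.20 (SE 0.24, adjusted p = 0.0103; 0.0518 without the wild-type 4 h array) and Selplg, the selectin ligand gene, by 1.22 (SE 0.16, adjusted p = 0.00135). Vcam1, the adhesion molecule bound by the integrin VLA-4, was the one called lower in KO (1.06% of all genes), and 0 were called higher (0.891%). Vcam1 read 3.73, 6.64 and 6.89 in wild-type cells and 2.53, 5.75 and 5.84 in KO cells. Its KO value at 0 h was under the array median, so the gap at 0 h and the KO rise are against a level near background. It fell by 1.05 in KO (SE 0.13, adjusted p = 0.00681). With probe sets averaged the coefficient was -0.41 (adjusted p = 0.0930). Of 6 T cell partner genes above the floor, Havcr2, which encodes TIM-3, fell by 0.82 at 4 h (7.61% of all genes fell). That call was lost without the wild-type 0 h array (-0.60) or 4 h array (-0.56). Between genotypes 0 of the 6 were called higher in KO (0.891%) and 0 lower (1.06%), and nothing is read from that count. Ctla4, Pdcd1, Lag3 and Cd5 never reached the array median.

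**Figure D4:**
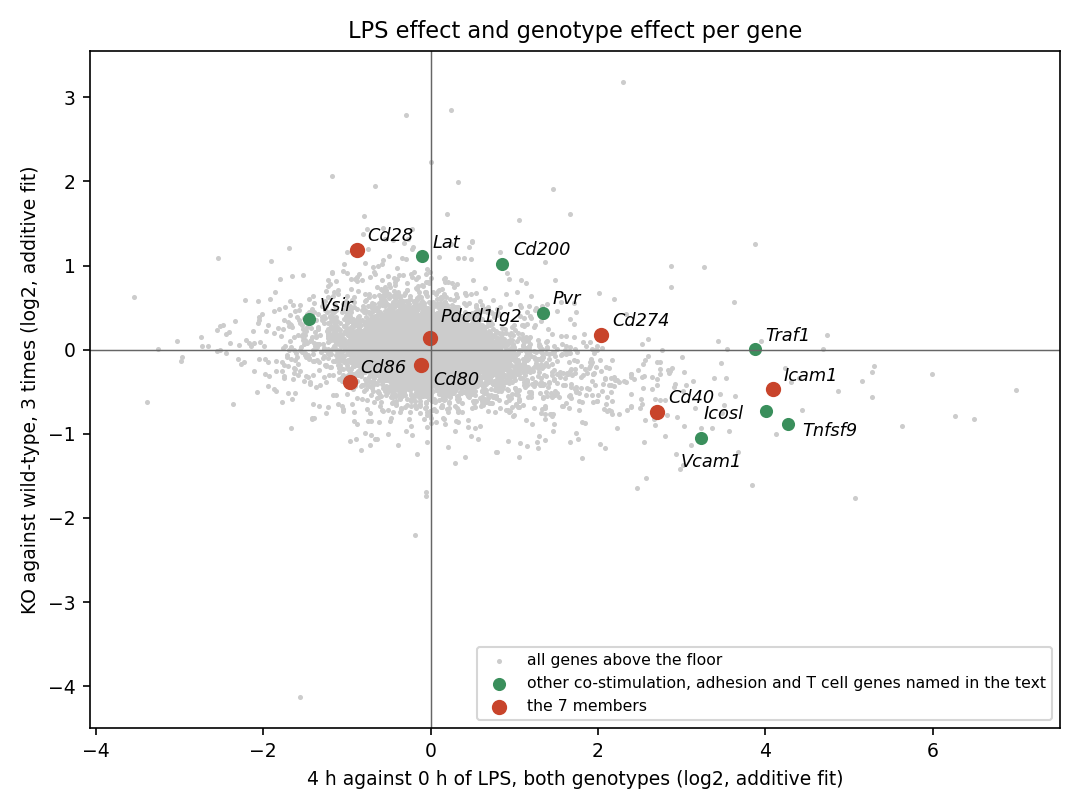
Each grey point is 1 of 13587 genes, with its additive-fit coefficient for 4 h against 0 h of LPS on the horizontal axis and for KO against wild-type on the vertical axis, both on the log2 scale. Red points are the 7 members and green points are other genes named in the text. Icam1, Cd40, Icosl, Vcam1 and Tnfsf9 lie at the lower right, Cd28 at the upper left, and Traf1 close to 0 on the vertical axis.

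Among themselves the members fell into no single pattern. Cd80 and Pdcd1lg2, both near the array median, had the smallest root mean square difference of their 6 centred values (0.210), and Icam1 and Cd28 the largest (2.31). Of the members that rose, Cd40 and Cd274 were 0.650 apart, Cd40 and Icam1 0.821, and Cd274 and Icam1 1.27. These distances compare shapes over 6 arrays and carry no test.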

How the data were processed

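Total RNA of 6 macrophage samples was amplified, biotin-labelled and hybridised to Affymetrix mouse arrays, 1 array for each combination of genotype and time. The authors' deposited values are log2 expression per probe set. The submitters' processing notes name RMA, whose version is not given in the sources used here. Across 45101 probe sets the lowest value was 2.26 and the highest 14.2. Precision is limited by the number of arrays.

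Of the probe sets 34958 had 1 gene symbol, 932 several and 9211 none here, and 34754 matched a RefSeq gene of GRCm38.p6, used for names and neighbours. The members and gene lists were chosen with earlier results of these data known. Fits used limma 3.58.1 in R 4.3.3 (lmFit, eBayes) on 13587 genes, with 2 residual degrees of freedom in the additive fit and 1 with the interaction, and were tested on simulated data. Named genes are the members, up to 4 called genes of each list by size (genotype first, then 4 h), and the 3 closest profiles of members spanning at least 1. Lat and cell type markers were named as markers. Alternatives were other floors, probe set rules, scalings, eBayes settings, thresholds and arrays left out. Promoter windows came from RefSeq; those of Cd40, Cd86 and Cd28 are not used here.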

Additional observations from a re-analysis of the deposited data

Results flagged for a closer look

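By the probe sets that represent them, Cd86 and Cd28 changed in opposite directions at 2 h in the 2 genotypes. The log2 difference of Cd86 from 0 h was -0.321 in wild-type and 0.128 in KO. That of Cd28 was -0.591 in wild-type and 0.191 in KO. The second probe set of each gene went against this: it ran the same way in both genotypes, at 0.34 and 0.68 for Cd86 and -0.21 and -0.26 for Cd28 in wild-type and KO. Each direction rests on 1 array a time, and the difference at 2 h was not tested on its own; the interaction over both LPS times had an adjusted p of 0.700 for Cd86 and 0.747 for Cd28 in limma.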

How the results depend on the processing

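The rises of Icam1 and Cd40 at 2 and 4 h and of Cd274 at 4 h were called under every alternative fit run. The count of members that fell at 4 h, 2 in the main setting, was 0 with probe sets averaged, 1 with arrays centred and 1 to 2 with single arrays left out (1 without the wild-type 0 h or the KO 4 h array). The count lower in KO, 1 (Cd40), was 0 with quantile normalization again, with arrays centred, without the 2 h or the 4 h arrays, and 2 under trended, robust eBayes. With single arrays left out it was 0 to 1, being 0 whichever of the 4 LPS arrays was left out. For the genotype term, leaving out 1 array gives the same result as leaving out both arrays of its time, so this is no further check. Leaving out single arrays was added after the data were seen.

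The single-array counts, of rises and falls together, moved as follows. Those between genotypes count Cd28 where it passed, although it was included for being higher in KO. Shares of all genes under these settings are not given here, so nothing is read from the counts. With a 1.5-fold rule they were 4 in wild-type at 2 h, 5 in KO at 4 h, 2, 3 and 2 between genotypes at 0, 2 and 4 h, and 1 and 2 for the response difference at 2 and 4 h. Without _x_at and _s_at probe sets wild-type at 2 h had 1 and the genotypes at 4 h had 1, as they did with probe sets averaged. With arrays centred KO at 4 h had 5 and the genotypes at 0 h had 1, as they did with quantile normalization again.

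Signs turned for values near 0 that were not called. With probe sets averaged Cd80 stood at -0.074 at 2 h and 0.036 at 4 h, and Cd86 at 0.21 at 2 h. Pdcd1lg2 at 4 h was 0.048 with quantile normalization again and 0.028 with arrays centred, where its interaction was -0.001. Cd274 between genotypes was -0.040 without the 2 h arrays. With single arrays left out, the 2 h coefficients ran from -0.15 to 0.25 for Cd80, -0.29 to 0.098 for Cd86, -0.20 to 0.017 for Pdcd1lg2 and -0.63 to 0.23 for Cd28. The 4 h coefficients ran from -0.26 to 0.034 for Cd80 and -0.11 to 0.10 for Pdcd1lg2, and the genotype coefficient of Cd274 from -0.040 to 0.45. Centring moved the median of all genes from -0.064 to 0.10 for wild-type at 4 h, from 0.017 to -0.083 for KO at 4 h and from -0.074 to 0.087 between genotypes at 0 h. The interaction was not fitted with any array left out, since no residual degree of freedom remained. No paired analysis was possible because the labels give no replicate numbers. The causes of these changes were not tested.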
